A study of Mus musculus with 58 samples.

Results

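The 4 CpGs described here are those of a custom mouse brain methylation array that carry the gene names Ide, Mme, Cdk5 and Cdk5r1, and they are 4 of its 382 CpGs. Each gene has 1 CpG, printed in the files as Ide-636, Mme-971, Cdk5-337 and Cdk5r1-161; the labels and files do not explain the number. A bead array of this kind (Illumina GoldenGate) distinguishes methylated from unmethylated CpGs after bisulphite treatment, which changes unmethylated cytosines only, and the value is beta, the methylated share of the signal between 0 and 1. DNA came from dissected brain, and a beta value is therefore an average over all cells of a sample.

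Ide encodes insulin-degrading enzyme, a zinc metalloprotease that cleaves insulin, other small peptides and amyloid beta. Mme encodes neprilysin, a zinc metalloprotease of the cell surface that cleaves enkephalins, tachykinins, natriuretic peptides and amyloid beta. Cdk5 encodes a kinase that is active mainly in neurons, where it phosphorylates tau and other substrates, and Cdk5r1 encodes p35, an activator without which the kinase has little activity. Amyloid beta and hyperphosphorylated tau are the main constituents of plaques and tangles in Alzheimer disease. Methylation of CpGs at a gene's start often goes with low transcription, but no RNA was measured here.

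Mice labelled 3TG, with the genetic background C57BL/6-129, gave 3 samples of frontal cortex (FC_3TG) and 1 of CA1, a hippocampal field (CA1_3TG). Their alleles are not spelled out in the labels used here, and ages are not given. The label WT, with the background C57BL/6, belongs to 2 samples of frontal cortex (FC_WT). C57BL/6 mice labelled healthy gave the other regions: 6 samples each of caudate-putamen (CPU), substantia nigra (SN) and the granular cell layer (GCL), 5 each of basolateral amygdala (BLA), thalamus (TH), globus pallidus (GP), dentate gyrus (DG) and hypothalamus (HYP), and 4 each of hippocampal field CA3 and of Purkinje cells (PC). With FC_WT these are 53 samples of 11 regions. Whether replicates are different animals is not stated, and p-values therefore cover the spread between these samples, which may be technical. Replicates carry codes such as F1 or M4, and the meaning of the letters is not given.

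Mean beta per array lay between 0.249 and 0.294 over 58 arrays, and no value was missing. Precision is limited by the number of arrays. The titles of FC_WT and of DG F7, F8 and F9 begin with WT, unlike those of the other regions, and no label calls this a batch. Arrays differed at the low end of their values: the first quartile of the 378 CpGs outside these 4 genes ran up to 0.0759 in PC F2 and 0.0995 in PC M3, the highest arrays, against 0.0456 in FC_WT 1_a, the lowest. The array measures no expression, so tissue labels could not be checked against the expression of marker genes.

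Sequence around the annotated starts of the 2 protease genes is printed because the stretches just upstream of these starts differ widely in their number of CpGs. Each window is the 250 bases before a start of transcription in RefSeq, build GRCm38.p6, on the strand of the gene, with every CG in capitals. Ide has 1 window, on the minus strand of chr19:37334545-37334794, and Mme has 2 non-overlapping ones on the plus strand, chr3:63294961-63295210 and, before a later start, chr3:63295622-63295871.
Ide: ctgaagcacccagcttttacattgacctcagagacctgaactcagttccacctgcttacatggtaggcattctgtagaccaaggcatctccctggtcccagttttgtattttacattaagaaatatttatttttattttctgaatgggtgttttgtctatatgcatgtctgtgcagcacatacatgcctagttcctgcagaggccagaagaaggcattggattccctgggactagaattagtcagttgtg
Mme, first start: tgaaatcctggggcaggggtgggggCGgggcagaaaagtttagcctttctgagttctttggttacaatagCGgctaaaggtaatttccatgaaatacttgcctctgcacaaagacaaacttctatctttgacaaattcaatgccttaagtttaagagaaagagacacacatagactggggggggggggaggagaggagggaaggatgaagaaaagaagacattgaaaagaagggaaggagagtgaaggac
Mme, later start: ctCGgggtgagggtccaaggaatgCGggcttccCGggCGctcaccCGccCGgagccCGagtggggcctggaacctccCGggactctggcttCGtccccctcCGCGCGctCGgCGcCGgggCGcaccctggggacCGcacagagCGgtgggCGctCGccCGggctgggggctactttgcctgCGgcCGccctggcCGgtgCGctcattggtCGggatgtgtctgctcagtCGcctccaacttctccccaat
The letters CG, read once because they are their own reverse complement, occurred 0 times in the Ide window, 2 times in the first Mme window and 27 times in the later one. Of 32851 windows of this length in the RefSeq table, 7.87% held no CG, 18.8% held fewer than 2 and 91.4% held fewer than 27. The files do not give the position of the measured CpGs, so none of the values below can be assigned to a base of these windows.

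The 4 CpGs lay at different levels. Over the 53 region samples Ide had a mean beta of 0.662 ± 0.0950, Mme of 0.158 ± 0.0213, Cdk5r1 of 0.0735 ± 0.0163 and Cdk5 of 0.0387 ± 0.00636 (SD, n = 53). Ide was thus mostly methylated, above the mean of 82.2% of the CpGs on the array, and Cdk5 was among the least methylated, above 5.50% of them. Between the lowest and the highest region mean, beta spanned 0.371 at Ide, which ranks 5 among the 382 CpGs, 0.0530 at Mme (rank 181), 0.0434 at Cdk5r1 (rank 211) and 0.0135 at Cdk5 (rank 359). The median span over all CpGs was 0.0496. Regional differences were tested with limma on log2(beta / (1 - beta)), the log2 odds of methylation, and p-values were adjusted over all 382 CpGs (Benjamini-Hochberg), with a call at an adjusted p under 0.05. The F-test over 11 regions called Ide (adjusted p = 1.4e-10) and Mme (0.036), but neither Cdk5r1 (0.111) nor Cdk5 (0.27). That is 2 of 4, on an array where the same test called 44.5% of CpGs.

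Ide methylation was low in frontal cortex and in caudate-putamen and high in the other 9 regions. The 2 FC_WT samples had beta of 0.374 and 0.370. The 6 CPU samples had a lowest value of 0.455, a median of 0.522 and a highest value of 0.570. The 45 samples of the other 9 regions ran from 0.588 to 0.858, so neither FC_WT nor CPU overlapped with any of them. The share of all CpGs without such overlap was not counted, here or for the groups compared below. The 2 groups did not overlap with each other. For CPU this holds with the arrays of sample M4 averaged, as the array M4_a alone read 0.623. The group means were 0.372 ± 0.00273 in FC_WT (SD, n = 2) and 0.521 ± 0.0402 in CPU (SD, n = 6).

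FC_WT was lower than the mean of the other 10 regions, with 0.372 against 0.675 and a difference in log2 odds of -1.84 (95% interval -2.3 to -1.38, limma adjusted p = 2.46e-08). In this contrast 27.5% of all CpGs were called lower and the median over all CpGs was -0.19, and Ide ranks 3 from the lowest difference of the 382. CPU was lower too, with 0.521 against 0.661 and a difference in log2 odds of -0.88 (95% interval -1.16 to -0.60, limma adjusted p = 4.01e-06). Only 4.19% of CpGs were called lower in CPU, with a median of -0.01 over all CpGs, and Ide again ranks 3 from the lowest.

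**Figure D1:**
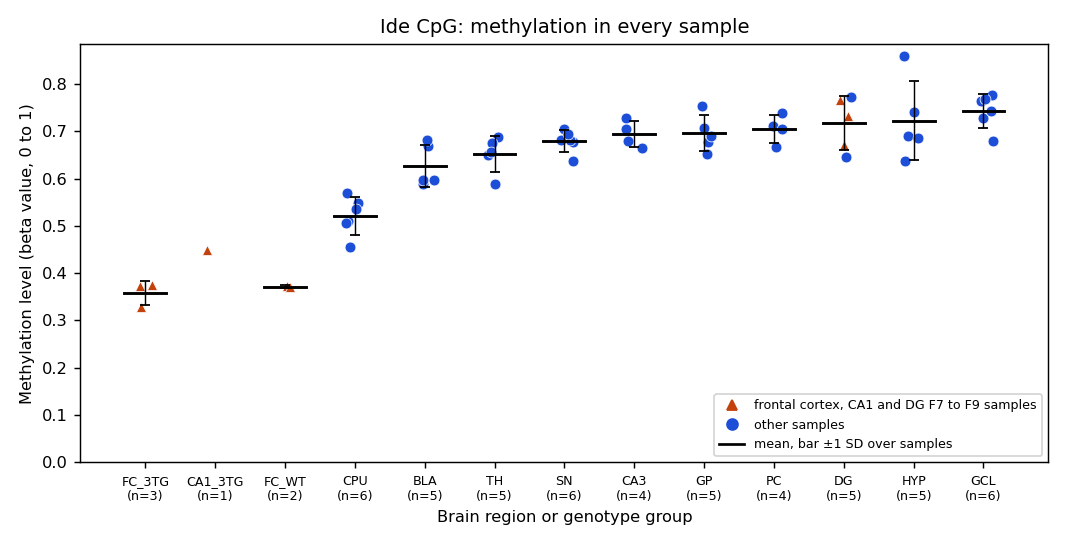
Beta of Ide (y axis, methylated share) in every sample of the 13 groups (x axis), with 3TG groups left of the wild-type ones; triangles are the frontal cortex, CA1 and DG F7 to F9 samples, circles the others, and bars the group mean ± SD. The 5 frontal cortex samples sit between 0.329 and 0.374 and the 6 CPU samples between 0.455 and 0.570. Both lie below the 45 samples of the other 9 regions, which run from 0.588 to 0.858. CPU M4 is drawn as the mean of its arrays, of which M4_a alone read 0.623.

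At the high end of Ide stood 3 regions that were called above the mean of the others. GCL, the cerebellar layer of small neurons, had a lowest value of 0.680, a median of 0.754 and a highest value of 0.777 in its 6 samples. Its mean was 0.743 ± 0.0357 (SD, n = 6) against 0.638 in the other regions, a difference in log2 odds of 0.69 (limma adjusted p = 6.72e-05), where 8.12% of CpGs were called higher. HYP had 0.740, 0.689, 0.638, 0.858 and 0.686, so that 1 sample, HYP M1 at 0.858, stood above the rest. The HYP mean of 0.722 ± 0.0840 (SD, n = 5) against 0.640 gave a difference in log2 odds of 0.57 (limma adjusted p = 0.0057), where 8.64% of CpGs were called higher, but without HYP M1 it was 0.286 (limma adjusted p = 0.275). DG had 0.646, 0.772, 0.671, 0.731 and 0.765, spread over most of the range of the high regions. Its mean of 0.717 ± 0.0563 (SD, n = 5) against 0.641 gave 0.49 in log2 odds (limma adjusted p = 0.0133), where 7.85% of CpGs were called higher. This call was lost when DG M2, DG F8 or DG F9 was left out, with the lowest value, 0.388, without DG M2. The HYP and DG calls also depended on FC_WT being among the other regions: without it they were 0.394 (limma adjusted p = 0.107) and 0.307 (0.114), while GCL kept its call.

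The remaining regions lay between CPU and these 3. BLA, the lowest of them, had beta of 0.588, 0.668, 0.597, 0.682 and 0.598, with 3 samples near 0.6 and the others near the level of SN. From low to high, the means were 0.627 ± 0.0448 in BLA (SD, n = 5), 0.651 ± 0.0380 in TH (SD, n = 5), 0.679 ± 0.0233 in SN (SD, n = 6), 0.694 ± 0.0279 in CA3 (SD, n = 4), 0.696 ± 0.0374 in GP (SD, n = 5) and 0.705 ± 0.0293 in PC (SD, n = 4). None of these 6 was called against the mean of the other regions, in contrasts that called 6.81% of CpGs in either direction for BLA, 7.07% for TH, 14.9% for SN, 2.09% for CA3, 0% for GP and 46.6% for PC. The nearest was PC, at 0.38 in log2 odds with a limma adjusted p of 0.0553.

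In pairs of regions, Ide was called in 21 of 55, or 38.2%, where the same tests called 14.9% of all combinations of pair and CpG. All 10 pairs with FC_WT were called, 9 of the 10 pairs with CPU, and 3 with neither, which set BLA against DG, BLA against GCL and GCL against TH. Among neighbours in the order of the means, CPU and FC_WT differed (limma adjusted p = 0.00917, with 24.9% of CpGs called between them). BLA and CPU did not pass (0.0572), though their samples do not overlap when the arrays of CPU M4 are averaged. The 8 higher steps had limma adjusted p-values from 0.641 to 0.991, so the order among the upper 9 regions is not resolved step by step. With p-values adjusted over all pairs at once, 23 pairs passed for Ide.

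The low Ide value in FC_WT was also seen against the samples whose titles have the same form. DG F7, F8 and F9 had Ide beta of 0.671, 0.731 and 0.765, against 0.374 and 0.370 in FC_WT, and the difference FC_WT minus DG F7 to F9 was -2.15 in log2 odds (limma adjusted p = 4.67e-07; 9.16% of CpGs called, a split chosen after seeing the data). Within dentate gyrus these 3 averaged 0.722 ± 0.0475 (SD, n = 3), against 0.709 ± 0.0891 in DG F3 and M2 (SD, n = 2), and this difference was not called (limma adjusted p = 0.872). In CPU, the sample M4 had been run on 2 arrays, which gave Ide beta of 0.623 and 0.516 and entered as their mean of 0.570. That gap of 0.107 is larger than at 93.5% of the CpGs, whose median gap was 0.0230, and M4_a taken alone falls within the range of the other regions. With either array alone CPU was still called lower, at -0.824 in log2 odds with M4_a and -0.930 with M4_b (limma adjusted p = 1.65e-05 and 1.86e-06).

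The CpGs whose region means followed those of Ide most closely belong to receptor genes and to a gene of the inner ear. Pearson's r over the 11 region means in log2 odds was 0.895 with Chrm4, a muscarinic acetylcholine receptor, 0.894 with Avpr2, a vasopressin receptor, and 0.874 with Otog, which encodes otogelin. Each of these 3 was lowest in FC_WT, with mean beta of 0.618 at Chrm4, 0.497 at Avpr2 and 0.291 at Otog. Avpr2 was not called by the region F-test (adjusted p = 0.174) and differed by code letter (F minus M -0.44 in log2 odds, limma adjusted p = 4.04e-05). It is among the 17 X-linked CpGs of the array, without which no CpG was called by letter. Regions with letters differ in their share of F-coded samples, and the FC_WT samples carry no letter. The most opposed CpG was that of Htr4, a serotonin receptor (r = -0.928), which was highest in FC_WT at 0.129 and lowest in GCL at 0.0677. By Spearman's rank correlation the nearest were Edg7 (0.891), Edg8 (0.873) and Ptafr (0.764), receptors for lipid mediators, and the most opposed was again Htr4 (-0.909), so the 3 nearest depend on the measure. These are descriptions over 11 points of the same arrays.

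Mme methylation was low everywhere, and its regional calls rested on frontal cortex and on 3 of the dentate gyrus samples. FC_WT had beta of 0.153 and 0.0961, 2 values far apart. DG F7, F8 and F9 had 0.115, 0.111 and 0.118, whereas DG F3 and M2 had 0.151 and 0.161. The 4 PC samples, the highest region, had 0.169, 0.182, 0.174 and 0.185, all above the FC_WT and DG samples. Against the other regions, 34.8% of all CpGs were called higher in PC, 27.5% lower in FC_WT and 16.2% lower in DG. The group means were 0.124 ± 0.0401 in FC_WT (SD, n = 2), 0.131 ± 0.0231 in DG (SD, n = 5) and 0.177 ± 0.00736 in PC (SD, n = 4), and the other 8 regions lay between 0.155 (HYP) and 0.166 (CPU).

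Against the other regions, Mme was called lower in DG, with 0.131 against 0.159, a difference in log2 odds of -0.33 (limma adjusted p = 0.016), where 16.2% of CpGs were called lower. It was also called lower in FC_WT, with 0.124 against 0.160 and a difference of -0.45 in log2 odds (limma adjusted p = 0.0242), beside the 27.5% of CpGs and the median of -0.19 given above. Without FC_WT 3, the library at 0.0961, the FC_WT difference was -0.0666 (limma adjusted p = 0.895), so this call is that of 1 sample. PC, at 0.25 in log2 odds, was not called (limma adjusted p = 0.0623). No pair of neighbours in the order of the means was called, and 12 of 55 pairs of regions were, or 21.8% (14.9% over all CpGs), all with FC_WT or DG on one side. With p-values adjusted over all pairs at once 6 passed, and 6 without FC_WT 3, 4 after quantile normalization and 2 with centred arrays.

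The split inside dentate gyrus was itself called for Mme. DG F7 to F9 averaged 0.115 ± 0.00355 (SD, n = 3) against 0.156 ± 0.00690 in DG F3 and M2 (SD, n = 2), a difference in log2 odds of -0.51 (limma adjusted p = 0.04), and 22.8% of CpGs were called in that contrast. Between FC_WT and DG F7 to F9, by contrast, Mme differed by 0.10 in log2 odds (limma adjusted p = 0.943). The F-test for Mme had an adjusted p of 0.794 without FC_WT and DG F7 to F9. The labels do not say whether DG F7 to F9 were handled apart from DG F3 and M2, and this was not tested.

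**Figure D2:**
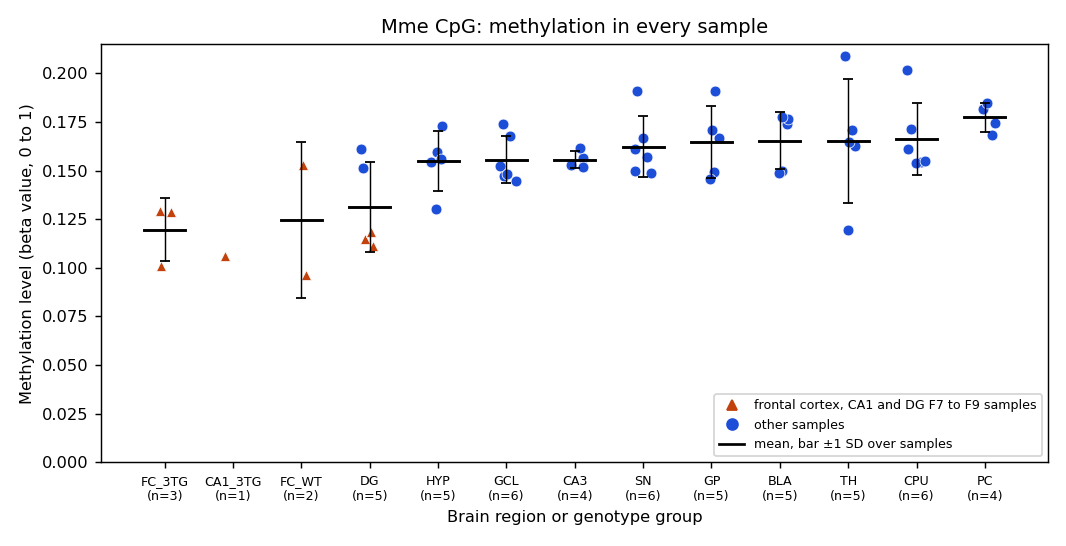
Beta of Mme (y axis, methylated share) in every sample of the 13 groups (x axis); triangles are the frontal cortex, CA1 and DG F7 to F9 samples, circles the others, and bars the group mean ± SD. DG F7 to F9 (0.111 to 0.118) lie apart from DG F3 and M2 (0.151 and 0.161) and at the level of the 3TG samples and of FC_WT 3.

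The CpGs nearest to Mme over region means were Dusp6, a phosphatase of MAP kinases (r = 0.948), Slc1a3, the glial glutamate transporter GLAST (0.947), and Grik1, a kainate receptor subunit (0.94). All of them were lowest in FC_WT and highest in PC, for example Slc1a3 with 0.145 in FC_WT and 0.241 in PC. Gabre, a GABA-A receptor subunit, was the most opposed (r = -0.93), with 0.404 in FC_WT and 0.121 in PC. However, Gabre was not called by the region F-test (adjusted p = 0.535) and differed by code letter (F minus M -2.76 in log2 odds, limma adjusted p = 1.89e-15). Gabre too is among the X-linked CpGs, without which no CpG was called by letter. The share of F-coded samples differs between the regions with letters, and the FC_WT samples carry no letter. By Spearman's correlation the nearest were Gpr98 (0.891), Agtr1b (0.882) and Chrm3 (0.845).

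**Figure D3:**
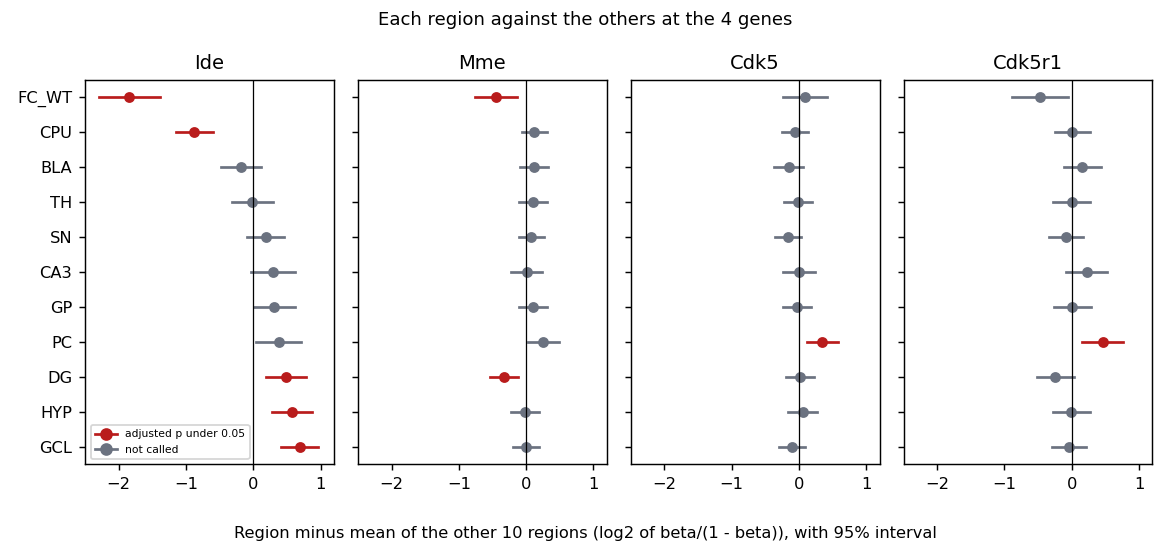
Difference in log2 odds of methylation between each region and the mean of the other 10 (x axis, regions down the page, a panel per CpG), with 95% intervals from limma and called contrasts in red. Ide spans from -1.84 in FC_WT to 0.69 in GCL, while the values of the other 3 CpGs stay within 0.5 of 0.

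The kinase gene Cdk5 was close to unmethylated in all regions. Its 53 values ran from 0.0305 to 0.0656, and region means from 0.0353 in BLA to 0.0488 in PC. Cdk5r1, the activator, ran from 0.0496 to 0.145, with region means from 0.0543 in FC_WT to 0.0977 in PC. Purkinje cells were the highest region of both and the only one in which either was called.

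In PC the Cdk5 values were 0.0375 in F1, 0.0505 in F2, 0.0414 in F4 and 0.0656 in M3. The Cdk5r1 values in the same order were 0.0697, 0.108, 0.0682 and 0.145. At both CpGs F2 and M3 were the higher samples. M3 lay above all samples of the other regions at both, F2 only at Cdk5r1, and F1 and F4 lay within their range at both. Cdk5 averaged 0.0488 ± 0.0125 in PC (SD, n = 4) against 0.0381 in the other regions, a difference in log2 odds of 0.35 (limma adjusted p = 0.0151). Cdk5r1 averaged 0.0977 ± 0.0365 in PC (SD, n = 4) against 0.0708, a difference of 0.46 in log2 odds (limma adjusted p = 0.0134). In this contrast 34.8% of all CpGs were called higher and the median over all CpGs was 0.20.

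PC F2 and PC M3 are the 2 arrays with the highest first quartile. Without them, chosen after seeing the data, the PC difference was 0.0615 for Cdk5 (limma adjusted p = 0.854) and -0.0178 for Cdk5r1 (limma adjusted p = 0.963). After quantile normalization, which gives every array the same distribution, it was 0.00361 for Cdk5 (limma adjusted p = 0.975) and 0.206 for Cdk5r1 (limma adjusted p = 0.062). With each array centred on its median, the Cdk5 difference was 0.196 (limma adjusted p = 0.122), while Cdk5r1 kept its call at 0.305 (limma adjusted p = 0.0167). Of the 55 pairs of regions, Cdk5 was called in 2 (3.64%) and Cdk5r1 in 3 (5.45%), each with PC on one side, against 14.9% over all CpGs, and no neighbours in the order of the means were called. These counts turned on single samples: for Cdk5 there were 0 pairs without PC M3 and 7 without PC F1, and for Cdk5r1 9 without PC F4, while centring gave 6 for each.

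Across the 53 samples both CpGs went with the low end of their array. The correlation of log2 odds with the array's first quartile was r = 0.72 and rho = 0.621 for Cdk5, and r = 0.87 and rho = 0.765 for Cdk5r1 (two-sided permutation tests, p = 1e-05, the smallest that 1e+05 permutations can give, and 2e-05 after adjustment over 4 CpGs). Without PC F2 and M3, r was 0.554 for Cdk5 and 0.797 for Cdk5r1, and within regions, as deviations from region means, it was 0.73 and 0.866. For Mme, r was 0.297 and rho 0.321 (permutation p = 0.0337 and 0.0205, adjusted 0.0449 and 0.0273), with 0.213 without PC F2 and M3 and 0.144 within regions. For Ide, r was -0.0302 and rho -0.221 (permutation p = 0.827 and 0.112, adjusted the same), with -0.135 without these arrays and -0.305 within regions. Among the other CpGs, 99.2% had a lower r than Cdk5r1, 81.5% than Cdk5, 44.2% than Mme and 28.6% than Ide. All permutations ran over the 53 samples regardless of region, so their p-values also take in differences between regions. The correlations within regions were not tested.

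**Figure D4:**
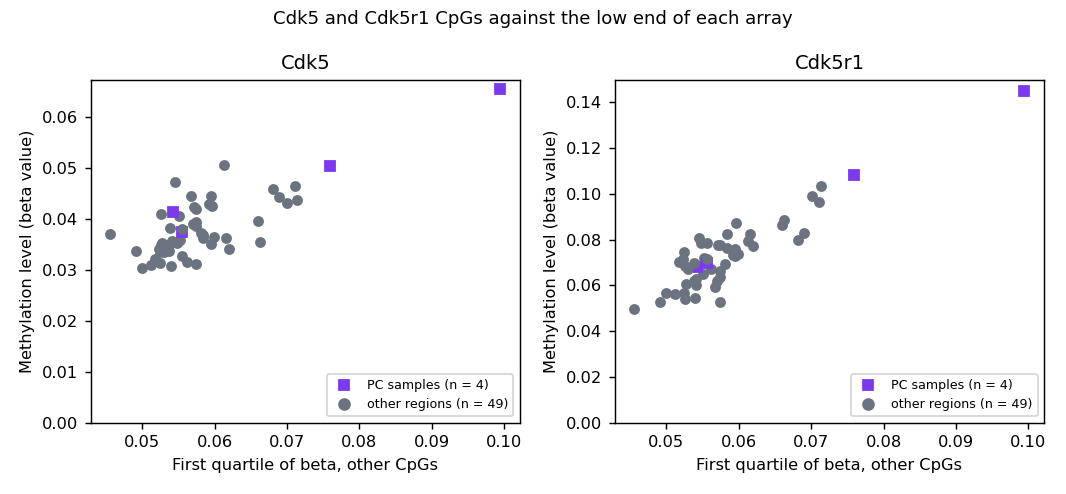
Beta of Cdk5 and of Cdk5r1 (y axes) against the first quartile of beta over the other 378 CpGs of the same array (x axis), 1 point per sample. Purple squares are the 4 PC samples and grey circles the other 49. PC M3 (0.145 at Cdk5r1, first quartile 0.0995) and PC F2 (0.108, 0.0759) stand at the upper right of both plots.

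The deviations of Cdk5 and Cdk5r1 from their region means correlated at r = 0.678 over 53 samples that share their arrays. Within regions each also correlated with the array's first quartile, at 0.73 for Cdk5 and 0.866 for Cdk5r1. How much of the 0.678 goes with this array level was not tested. The region means of the 2 CpGs correlated at 0.325 over 11 regions. Mme and Cdk5r1 showed the reverse pattern, with 0.85 over region means and 0.247 within regions. Ide correlated with Mme at 0.436 and with Cdk5r1 at 0.504 over region means, and at -0.232 and -0.386 within regions. These are descriptions, since all 4 values come from the same array. The CpGs nearest to Cdk5 over region means were Erbb2, a receptor tyrosine kinase (0.952), Gabrd, a GABA-A receptor subunit (0.924), and Nab2, a transcriptional corepressor (0.922), all highest in PC and lowest in SN. The region F-test called none of them (adjusted p = 0.142, 0.262 and 0.0788). Ltb4r2, a leukotriene receptor, was the most opposed (-0.807) and was not called either (adjusted p = 0.279). Among those nearest to Cdk5r1 were Htr1f, a serotonin receptor (0.975), and Txndc15 (0.949), both highest in PC and lowest in FC_WT.

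Between 3TG and wild-type frontal cortex none of the 4 CpGs was called, and in this contrast 1.31% of all CpGs were called (5 of 382, with 23 at an unadjusted p under 0.05). Ide had beta of 0.373, 0.329 and 0.374 in FC_3TG, against 0.374 and 0.370 in FC_WT, and the low level was thus present in all 5 frontal cortex samples. Mme had 0.129, 0.101 and 0.129 in FC_3TG, against 0.153 and 0.0961 in FC_WT, so that the 3TG values lie between the wild-type ones. Cdk5 had 0.0394, 0.0425 and 0.0421 in FC_3TG, against 0.0371 and 0.0446 in FC_WT, again between them. Cdk5r1 had 0.0595, 0.0560 and 0.0640 in FC_3TG, against 0.0496 and 0.0591 in FC_WT, with overlapping ranges.

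The fitted differences, 3TG minus wild type in log2 odds, were -0.08 for Ide (95% interval -0.65 to 0.49), -0.04 for Mme (-0.44 to 0.36), 0.02 for Cdk5 (-0.38 to 0.43) and 0.15 for Cdk5r1 (-0.37 to 0.67), each with a limma adjusted p of 0.999. Exact two-sided permutation tests gave p = 0.9, 1, 0.8 and 0.4 for these 4, in a design of 3 against 2 that cannot go below 0.1. The intervals leave room for changes of either sign, and for Mme the value was 0.345 without FC_WT 1_a and -0.417 without FC_WT 3. The genetic background also differs between the genotypes, and the 2 cannot be told apart. The single CA1_3TG sample had 0.449 at Ide, 0.106 at Mme, 0.0494 at Cdk5 and 0.0657 at Cdk5r1. Its Ide value lies above all 5 frontal cortex samples and below all 51 samples of the other 10 regions, which started at 0.455, and there is no wild-type CA1 sample to set it against.

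**Figure D5:**
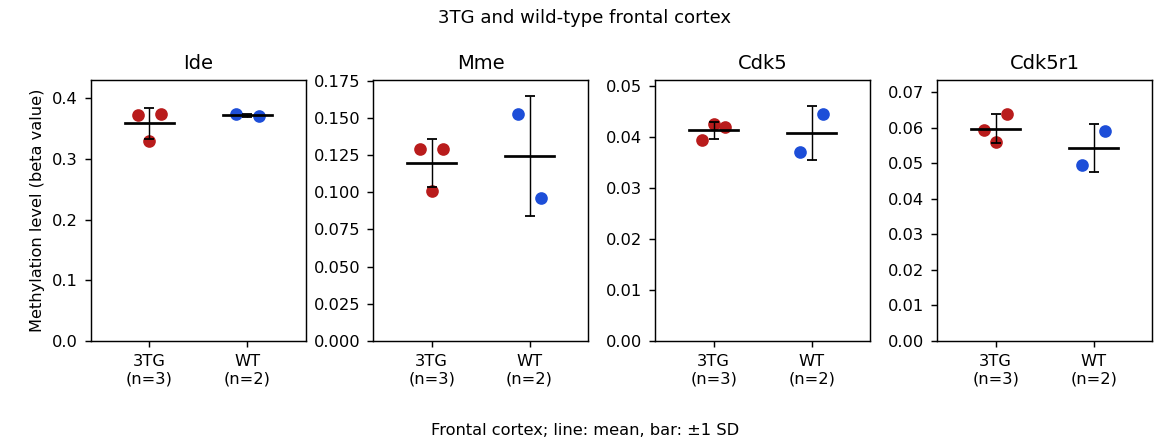
Beta of the 4 CpGs in 3TG frontal cortex (left, n = 3) and wild-type frontal cortex (right, n = 2) in a panel each, with y axes from 0; points are samples and bars the mean ± SD. The groups overlap at every CpG, with Ide means of 0.359 and 0.372.

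By the letter of the replicate code, F-coded samples had Ide beta of 0.672 ± 0.0764 (SD, n = 28) and M-coded samples 0.674 ± 0.0790 (SD, n = 23). With region in the model, the differences F minus M in log2 odds were -0.12 for Ide (95% interval -0.30 to 0.07), -0.04 for Mme (-0.16 to 0.09), -0.02 for Cdk5 (-0.15 to 0.12) and 0.00 for Cdk5r1 (-0.17 to 0.17). None was called (limma adjusted p from 0.991 to 1), on an array where 3.93% of CpGs were called. Without the 17 X-linked CpGs, which include none of these 4, 0 CpGs were called by letter.

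Genes that act around these 4 were described from 3 lists. Of 58 further amyloid and tau genes, 7 were on the array, and 0 of 7 were called by the F-test, against 44.5% of all CpGs, though Lrp8 and Ppp2ca passed with arrays centred on their medians. Those with the smallest p were Lrp8, a reelin receptor (adjusted p = 0.111), Plg, the precursor of the protease plasmin (0.161), and Ppp2ca, a catalytic subunit of a phosphatase that acts on tau (0.163). The median span of region means in this list was 0.0198, against 0.0496 over all CpGs. In 3TG against wild-type cortex 0 of 7 were called.

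Of the genes for peptides that the 2 proteases cleave, or for receptors of such peptides and their relatives, 36 of 73 were on the array, and the F-test called 20 of these (55.6%, against 44.5% of all CpGs). Their median span was 0.0454, close to the 0.0496 of all CpGs. The somatostatin receptor Sstr3 (adjusted p = 7.69e-17) ranged from 0.0902 in GCL to 0.430 in SN. The bradykinin receptors Bdkrb1 (5.49e-16) and Bdkrb2 (1.46e-15) ran from 0.636 in PC to 0.938 in SN and from 0.186 in GCL to 0.503 in CPU. In FC_WT, where Ide was lowest, 10 of the 36 were called lower and 0 higher, a share near the 27.5% of all CpGs, and in CPU 2 were called lower and 5 higher (4.19% and 5.76% of all CpGs). None was called in the 3TG comparison, where Npy2r had the smallest p (unadjusted 0.0787).

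Of 33 regulators of cyclin-dependent kinases and neuronal CDK5 substrates, 7 were on the array and 6 were called by the F-test (85.7%, against 44.5% of all CpGs). All 6 were also called lower in FC_WT, where 27.5% of all CpGs were. Cdk5r1 itself was at -0.47 in log2 odds in FC_WT without passing (limma adjusted p = 0.0784), and Cdk5 at 0.09 (0.742). The smallest p-values were those of Grin2a, an NMDA receptor subunit (adjusted p = 2.26e-10), Kcnd2, a potassium channel (9.97e-07), and Drd2, a dopamine receptor (4.57e-06). Grin2a ran from 0.132 in FC_WT to 0.472 in CPU. In the 3TG comparison Cdkn1b, which encodes the cyclin-dependent kinase inhibitor p27, was called higher, with a mean of 0.0692 in FC_3TG against 0.0391 in FC_WT, 0.87 in log2 odds (limma adjusted p = 0.00731; 0.785% of CpGs were called higher). That call was lost when FC_WT 1_a (0.762, limma adjusted p = 0.216) or FC_3TG F12 (0.783, limma adjusted p = 0.0688) was left out.

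CpGs of cell type marker genes were measured on the same arrays. In FC_WT, where 27.5% of all CpGs were called lower and 4.19% higher, 1 of 2 astrocyte CpGs was called lower (Slc1a3) and 0 higher, and of 7 oligodendrocyte CpGs 2 were called lower (Gal3st1 and Cnp) and 1 higher. Of 4 neuronal CpGs there, 1 was called lower (Gap43) and 1 higher (Gabra6), and neither the immune nor the endothelial CpG was called. In CPU, 1 astrocyte, 1 oligodendrocyte, 1 neuronal and the endothelial CpG were called higher and 0 lower, where 5.76% of all CpGs were called higher and 4.19% lower. The mean beta of the 4 neuronal CpGs lay between 0.177 and 0.218 in GCL, the highest region for Ide, and between 0.199 and 0.264 in PC, the highest for Cdk5 and Cdk5r1. It lay between 0.252 and 0.281 in FC_WT, between 0.266 and 0.318 in CPU and between 0.231 and 0.349 in the other 7 regions. The GCL samples were thus below all samples of FC_WT, CPU and those 7 regions. Of the 4, the region F-test called only Gabra6 (adjusted p = 1.67e-15). The mean of Gabra6 was 0.237 in GCL and 0.278 in PC, against 0.405 (DG) to 0.580 (FC_WT) in the other regions. Gap43 and Camk2a were lower in FC_WT than in GCL, and Reln was 0.129 in GCL against 0.136 in FC_WT. The mean of the 2 astrocyte CpGs lay between 0.340 and 0.379 in GCL, between 0.324 and 0.387 in PC, between 0.436 and 0.449 in FC_WT, between 0.453 and 0.519 in CPU and between 0.221 and 0.538 in the others. That of the 7 oligodendrocyte CpGs lay between 0.209 and 0.254 in GCL, between 0.208 and 0.267 in PC, between 0.242 and 0.259 in FC_WT, between 0.218 and 0.269 in CPU and between 0.214 and 0.301 in the others. These oligodendrocyte ranges overlap in all groups. The immune CpG, of Ifng, lay between 0.831 and 0.917 in GCL, between 0.819 and 0.884 in PC, between 0.866 and 0.881 in FC_WT, between 0.781 and 0.910 in CPU and between 0.766 and 0.932 in the others. The endothelial CpG, of Tbxa2r, lay between 0.474 and 0.549 in GCL, between 0.464 and 0.586 in PC, between 0.532 and 0.648 in FC_WT, between 0.710 and 0.860 in CPU and between 0.304 and 0.871 in the others. In bulk tissue a different mix of cells and a different methylation within cells cannot be told apart, and the part of cell mixture in the differences at Ide, Cdk5 and Cdk5r1 was not tested.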

How the data were processed

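Genomic DNA was extracted with phenol, per the labels' protocols, converted with bisulphite and read on a custom Illumina GoldenGate array, per the series design. The deposited values are beta values, a fraction from 0 to 1 made by the authors, for 382 CpGs on 58 arrays; the scanner software, normalization and genome build are not given in the sources used, and signal over background was not used. No value was missing (range 0.0196 to 0.986), and 0 pairs of arrays were identical. Of the CpGs' gene names, 362 matched a symbol and 20 a synonym in RefSeq (GRCm38.p6); 17 CpGs are X-linked, none of them among the 4. Promoter windows came from a RefSeq table that held 2 of the 4 genes.

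Groups follow the labels for tissue and genotype, and the arrays M4_a and M4_b of CPU were averaged to 1 sample. Beta was limited to between 0.01 and 0.99, turned into log2(beta / (1 - beta)) and fitted with limma 3.58.1 in R 4.3.3 (lmFit, eBayes; Benjamini-Hochberg over the 382 CpGs; threshold 0.05). Of the fits, 1 over 53 samples gave the F-test, the region contrasts and the pairs, 1 over 57 samples the 3TG contrast, and 1 over 51 samples the letter contrast, with region as covariate and the code as random block (correlation 5.45e-05). Fits were tested on simulated arrays. Correlations with the array's first quartile used 1e+05 permutations (scipy 1.17.1 in Python 3.11.15), and figures were drawn with matplotlib 3.10.9. The pairing of samples with the same code was checked across regions: 149 such pairs had a median correlation of deviations of -0.0151, and 52 were over 0.1. Among 1121 pairs of other codes the median was -0.00254, and 408 were over 0.1. The codes were therefore not taken to pair samples. Both kinds of pairs ranged widely (-0.696 to 0.838 and -0.797 to 0.844), so the check cannot show that samples are unpaired.

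The 4 genes, the lists and the tests were chosen with earlier results of these data known. The genes named around each of the 4 are the 3 CpGs with the highest and the 1 with the lowest correlation of region means, and per list the 3 with the smallest F-test p and the 1 with the smallest p in the 3TG contrast; marker CpGs called in FC_WT were named after their values were seen. Some genes that this rule names are not reported here. Alternatives were untransformed beta, wider limits, quantile normalization, centring, filters on mean beta and X-linked CpGs, robust trended variances, blocks, the letter as covariate, and samples left out.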

Additional observations from a re-analysis of the deposited data

Results flagged for a closer look

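Of 40 sets of replicates of 4 to 10 samples, 3 held a sample whose distance to its nearest neighbour was large for the whole range (Dixon's test at 95%), and chance alone flags about 1 in 20. At Mme, CPU F4 had beta of 0.202, against 0.154 to 0.172 in the other 5 CPU samples (gap over range 0.632, critical value 0.625). At Cdk5, DG M2 had 0.0305, against 0.0406 to 0.0425 in the other 4 DG samples (0.842, critical value 0.71). Also at Cdk5, SN F2 had 0.0473, against 0.0307 to 0.0349 in the other 5 SN samples (0.748, critical value 0.625). HYP M1, which decided the Ide call in HYP, was not among them.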

How the results depend on the processing

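Ide kept its calls in the F-test (adjusted p from 6.28e-13 to 1.03e-08 with each sample left out), in FC_WT (-1.86 to -1.81), in CPU (-0.935 to -0.801) and in GCL (0.636 to 0.779), and also under every alternative run. The Ide HYP difference lost its call with centred arrays (0.454), a fixed replicate block (0.491), the letter as covariate (0.4), without FC_WT (0.394) and without FC_WT and DG F7 to F9 (0.399), and ran from 0.286 to 0.73 with each sample left out. The fit with the letter as covariate also left out FC_WT, whose samples carry no letter, and so gave no FC_WT difference. Losses with the letter, for HYP above and for the results below, cannot therefore be told apart from losses without FC_WT. The Ide DG difference lost its call with the letter (0.339), without FC_WT (0.307), DG F7 to F9 (0.442) or both (0.261). The same held with DG F7 to F9 as a group of their own (0.394). The difference turned to -0.51 with the fixed block, a fit that held DG F3 alone for DG. With each sample left out it ran from 0.388 to 0.611. For Mme, the F-test's adjusted p was 0.0748 after quantile normalization, 0.238 centred, 0.92 with the fixed block, 0.124 with the letter, 0.0944 without FC_WT, 0.23 without DG F7 to F9, 0.794 without both and 0.0739 without PC F2 and M3. It ran from 0.00549 to 0.115 with each sample left out, and the call was lost without FC_WT 3, PC F2, PC M3 or any of DG F7, F8 and F9. Mme in DG was uncalled after quantile normalization (-0.246), centring (-0.278) and with the fixed block (-0.102, DG F3 alone). It was also uncalled without DG F7 to F9 (-0.0186) or these and FC_WT (-0.0671), and 0.0298 with the split DG. The Mme difference in DG ran from -0.417 to -0.263 with each sample left out. Its call was lost without DG F7, F8 or F9. Mme in FC_WT was -0.135 after quantile normalization and -0.147 centred, and ran from -0.829 to -0.0666. Cdk5 in PC was 0.00361, 0.196 and 0.0615 after quantile normalization, centring and without PC F2 and M3, and 0.186 to 0.47 with each sample left out. Cdk5r1 in PC was 0.206, 0.392 and -0.0178 after quantile normalization, with the fixed block and without PC F2 and M3, and 0.219 to 0.624 with each sample left out. Both PC calls were lost without PC F2 or PC M3 alone. The Cdk5r1 F-test ran from 0.0361 to 0.286 and passed without DG F3, PC F1 or PC F4. The cause of these changes was not tested.

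F minus M turned sign for Ide (0.0337) and Mme (0.0816) after quantile normalization, for Mme (0.0148) and Cdk5 (0.0311) when centred, and for Cdk5r1 with untransformed beta (-0.000649) or without X-linked CpGs (-0.000564). With each sample left out it ran from -0.0533 to 0.0248 for Cdk5 and from -0.0347 to 0.0646 for Cdk5r1. In the 3TG contrast Cdk5 was -0.0405 when centred, and ranges were -0.132 to 0.0104 for Ide, -0.417 to 0.345 for Mme and -0.115 to 0.161 for Cdk5. Numbers of CpGs called were 105 (fixed block) and 111 (without FC_WT and DG F7 to F9) in the F-test, against 170, 28 (quantile) and 0 (without X-linked CpGs) by letter, against 15, and 8 with the 5 frontal cortex samples alone and 1 to 6 with each sample left out, against 5, in the 3TG contrast. That fell to 1 without FC_WT 1_a. The random replicate block changed no call, and the fixed one had 47 samples, no FC_WT and only F3 of the DG samples. In the 3TG contrast Cdkn1b ran from 0.762 to 0.978 with each sample left out, and it was uncalled with untransformed beta or with wider limits. Of the list genes, Lrp8 passed the F-test after quantile normalization (0.0347), centring (0.00283), with the split DG (0.0367) and without PC F1, and Ppp2ca when centred (0.0181), while Drd2 missed it with the fixed block (0.0557). Cdk5 has no value with limits of 0.05 and 0.95 or with the filter on mean beta. No signal over background was used, so how far values near 0.03 are limited by background was not tested.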
